A study of Caenorhabditis elegans with 4 samples.

Results

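The DVE-1 binding sites described here are the 454 peaks that the series' combined peak list places on the X chromosome, of 4971 peaks in all. Membership was set by chromosome alone and used no q-value, width or recurrence of the single peaks, although X was picked with earlier results of these data known. The list of ChIP replicate 1 holds 112 peaks on X of 1709, and that of ChIP replicate 2 holds 174 of 2109. The peaks come from chromatin immunoprecipitation and sequencing (ChIP-seq) of late embryos of Caenorhabditis elegans strain OP398, grown at 20 °C and labelled as hermaphrodite. All samples, 2 ChIP and 2 input, carry the unc-119(ed3) mutation on III and the bombarded transgene wgIs398, which holds unc-119(+) together with dve-1::TY1EGFPFLAG, a fusion that gives DVE-1 a C-terminal GFP tag. The antibody was directed against GFP, and neither the copy number nor the place of the transgene is stated. Values for the input samples and for embryos without the tag were not analysed here.

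DVE-1 is a homeodomain protein related to the mammalian SATB chromatin organizers, and it is best known from the mitochondrial unfolded protein response, in which it helps to switch on stress genes. The dve-1 gene itself lies on X, per the RefSeq gene table. The worm X chromosome is present in a pair in hermaphrodites, where dosage compensation lowers its transcription, and it carries few genes that are expressed in the germline. Like the autosomes it has no single centromere and is divided by recombination rate, with a centre where crossovers are less frequent than in the arms. Positions are on WormBase build WS180, and no gene, exon, intron or UTR is assigned to a peak, because annotation of that build was not used here. Whole embryos were used, so strong binding in a few cells and weaker binding in many cannot be told apart.

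The X peaks lay along the whole chromosome, except for its left tip, and no domain held clearly more of them than its length. Assigned by peak midpoint, 153 peaks fell in the left domain (positions 1–6137000), 148 in the centre (6137001–12480000) and 153 in the right domain (beyond 12480000). For want of a chromosome length, X was taken to end where its last listed peak ends, at 17718877. The densities were 24.9 peaks per Mb on the left, 23.3 in the centre and 29.2 on the right. The right domain held 33.7% of the X peaks (95% Clopper-Pearson interval 29.4 to 38.3) on 29.6% of the span. This is 1.14 times an even spread (2-sided exact binomial test, p = 0.057, adjusted p = 0.171 over 3 domains) and did not pass the test. The centre held 0.911 times an even spread (exact binomial, adjusted p = 0.256). The left domain held 0.973 times an even spread (exact binomial, adjusted p = 0.693) and likewise did not pass.

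In both replicate lists the density was highest on the right and lowest in the centre. Replicate 1 listed 37 peaks on the left, 30 in the centre and 45 on the right, or 6.03, 4.73 and 8.59 peaks per Mb. Replicate 2 listed 54, 54 and 66, or 8.80, 8.51 and 12.6 peaks per Mb. The right domain held 1.36 times an even spread in replicate 1 (exact binomial, adjusted p = 0.0508) and 1.28 times in replicate 2 (exact binomial, adjusted p = 0.0591). Neither passed the threshold of 0.05. These tests, and all those below, treat peaks as independent of each other, although some lie in runs of neighbours.

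**Figure D1:**
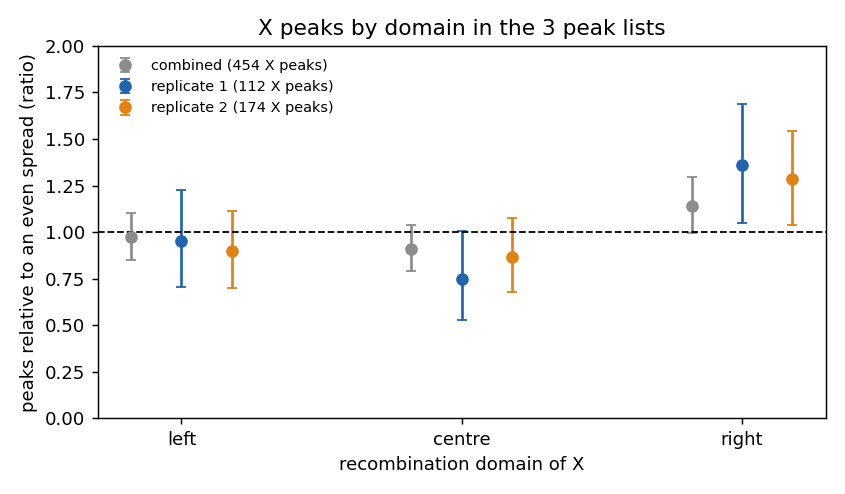
Number of X peaks in each recombination domain, relative to an even spread over the span of X (vertical axis, ratio), in the combined list and in both replicate lists; bars are 95% Clopper-Pearson intervals and the dashed line marks an even spread. The right domain has the highest ratio in each list, 1.14, 1.36 and 1.28, and no domain passes its adjusted test.

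Within the domains the richest stretch was the 14th Mb of X, from 13000001 to 14000000, where the combined list held 40 peaks, replicate 1 held 10 and replicate 2 held 15. The 15th Mb followed with 35 combined peaks. The 8th Mb, in the centre, held 18 peaks, of which 1 was found in both replicates. The first Mb held 16 combined peaks, but 8 of these were found in both replicates.

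**Figure D2:**
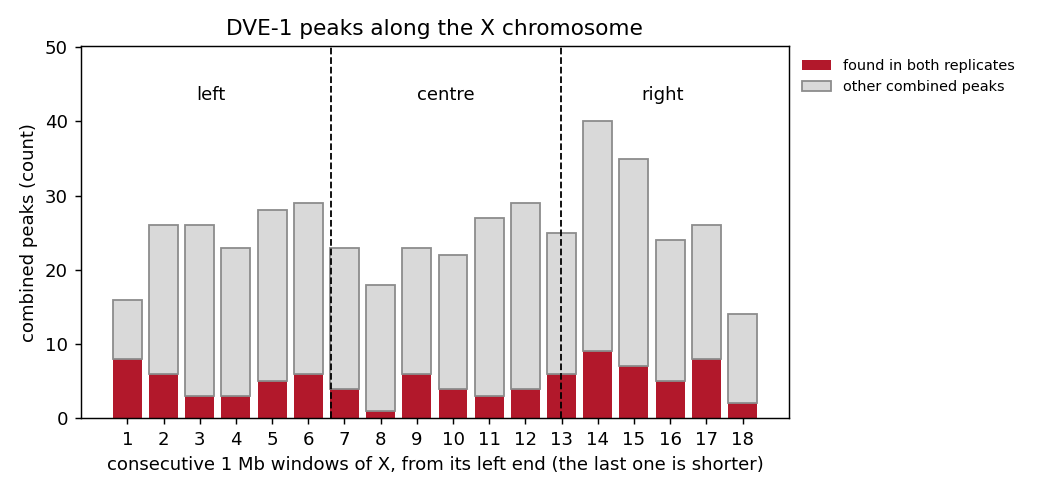
Combined DVE-1 peaks in consecutive 1 Mb windows of X from its left end (horizontal axis), with the count on the vertical axis; red marks peaks found in both replicates and dashed lines mark the domain limits. The 14th window is the highest with 40 peaks, 9 of them in both replicates, and the 8th has 1 peak in both replicates.

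The best-ranked sites of X were spread over all domains. Of the 20 X peaks with the smallest q-values, 4 lay on the left, 8 in the centre and 8 on the right, and all 20 were found in both replicates. They held ranks 1 to 117 of the combined list. Recurrence at such ranks was not particular to X, as 97.3% of the autosomal peaks in ranks 1 to 500 were also found in both replicates. Their −log10 q was at least 33.7, with a median of 46.9, and each was at least 496 bp wide. In replicate 1 the same sites had a median −log10 q of 19.2 (range 7.4 to 40.6) and in replicate 2 of 22.5 (15.9 to 65.6). The score was higher in replicate 2 at 17 of them and in replicate 1 at 3, and 18 were a single peak in each replicate.

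**Figure D3:**
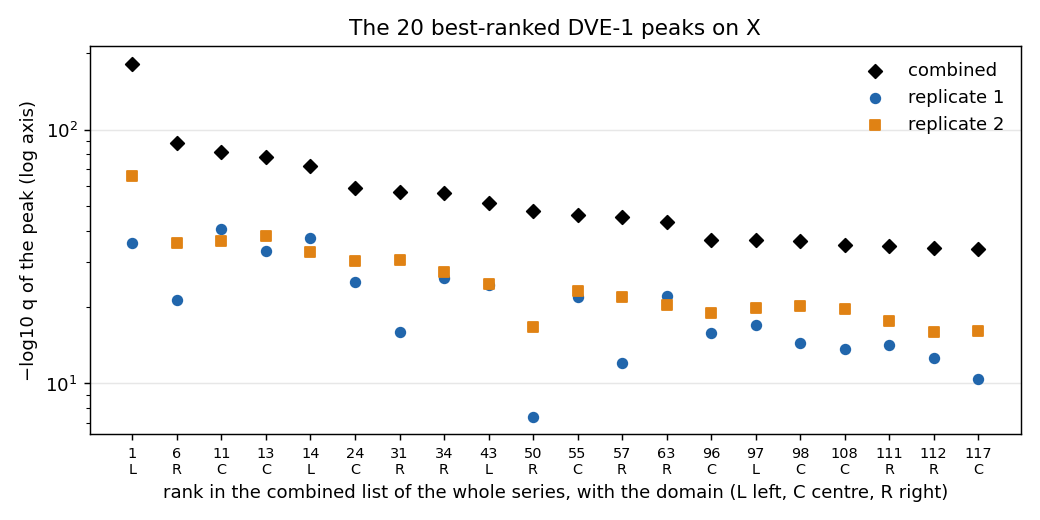
−log10 q of the 20 best-ranked X peaks (vertical axis, log scale) in the combined list (black), replicate 1 (blue) and replicate 2 (orange), ordered by their rank in the combined list (horizontal axis). Replicate 2 lies above replicate 1 at 17 of the 20 sites, and the combined score, at least 33.7, lies above both at each site.

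In the left domain the first of these sites was the 13176 bp block at X 424812–437987, whose −log10 q was 181.8 in the combined list, 35.8 in replicate 1 and 65.6 in replicate 2. Its edges recurred closely: it started at 424812 in replicate 1 and 424491 in replicate 2, and ended at 437918 and 437929. This block alone makes up 14.5% of the sequence covered by peaks in the left domain and 5.33% of that on X. A gap of 430 bp separates it from a second wide peak of 4245 bp at X 438418–442662, ranked 341 and listed in replicate 1 but not in replicate 2. The position of the tagged gene on this build and the input signal over the block were not examined, so their part in it was not tested.

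The next-best left sites were X 2996436–2997515 (rank 14, 1080 bp), X 4208578–4209687 (rank 43, 1110 bp), X 3035869–3036374 (rank 97, 506 bp) and X 1626745–1627390 (rank 133, 646 bp). The site at rank 14 scored a −log10 q of 37.3 in replicate 1 and 32.8 in replicate 2, and that at rank 43 scored 24.5 and 24.7. Within the lists these scores placed the site at rank 43 at rank 23 in replicate 1 and 66 in replicate 2.

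The best centre site was X 11093735–11094456, a peak of 722 bp at rank 11. It was the best X peak of replicate 1, at rank 6 there with a −log10 q of 40.6, and ranked 20 in replicate 2 with 36.4. X 8035984–8036962 followed at rank 13, with 33.2 in replicate 1 and 38.1 in replicate 2, and was 979 bp wide. The other leading centre sites were X 6296065–6296964 (rank 24, 900 bp), X 11605317–11606977 (rank 55, 1661 bp) and X 8404046–8404772 (rank 96, 727 bp). Next in the centre came X 9465458–9466173 (rank 98), X 11937067–11937776 (rank 108) and X 10568268–10569185 (rank 117).

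The best right site, X 16929332–16931950 at rank 6, was 2619 bp wide and consisted of 2 peaks in each replicate. Its left component carried the higher score, with a −log10 q of 21.3 against 9.7 for its right component in replicate 1, and 35.9 against 11.3 in replicate 2. X 15274880–15277462 (rank 50, 2583 bp) was divided in the same way. Its left component had 7.4 and its right 5.0 in replicate 1, and the left 16.7 and the right 6.9 in replicate 2. These were the 2 X peaks that corresponded to more than 1 peak in a replicate, of 110 found in replicate 1 and 170 in replicate 2. Such division was not particular to X. On the autosomes it was seen for 27 of 1526 peaks found in replicate 1 and 28 of 1868 in replicate 2.

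The remaining leading right sites were narrower. They were X 16056026–16056818 (rank 31, 793 bp), X 13700468–13701097 (rank 34, 630 bp), X 14525428–14526328 (rank 63, 901 bp), X 13046166–13046661 (rank 111, 496 bp) and X 14818425–14819612 (rank 112, 1188 bp). X 14559333–14561176 at rank 57 was wider, at 1844 bp, and scored 12.0 in replicate 1 and 21.9 in replicate 2. The site at rank 31 also differed between replicates, with 16.0 in replicate 1 and 30.5 in replicate 2.

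X peaks had a median width of 401 bp (quartiles 305 and 608) and covered 1.39% of the chromosome's span. The medians of the domains lay close together, at 405 bp on the left, 401.5 bp in the centre and 387 bp on the right. Peaks of 800 bp or more numbered 20 on the left, 25 in the centre and 16 on the right. Besides the block, its neighbour and the 2 divided sites, the widest X peak was X 12691338–12693611. It spanned 2274 bp but ranked 3611, with a q-value of 2.83e-05, and was in neither replicate list. At the other extreme, 6 X peaks were under 100 bp, and X 10382628 and X 10953701 were listed as peaks of 1 bp. On the autosomes 212 of 4517 peaks were under 100 bp, and the narrowest was likewise 1 bp.

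Broad peaks were more frequent on X than on the autosomes. At least 800 bp were spanned by 61 of 454 X peaks, or 13.4% (95% interval 10.4 to 16.9), against 254 of 4517 autosomal peaks, or 5.62% (4.97 to 6.34). The background over all combined peaks was 6.34%. By a 2-sided Fisher's exact test, X and the autosomes differed in this (p = 6.23e-09). It also passed in the replicate lists. In replicate 1 the share was 14.3% on X against 3.69% on the autosomes (Fisher's exact test, p = 1.31e-05). In replicate 2 the share was 16.1% against 7.24% (Fisher's exact test, p = 0.000186). Nearly all X peaks of the replicate lists overlap a combined peak, so these tests are not independent of the first.

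Higher-ranked peaks were wider on X and on the autosomes, so widths were also set side by side at like rank. The median on X was above that on the autosomes in each of 5 rank classes, with 722 against 631 bp in ranks 1 to 500 and 546 against 458 bp in ranks past 500 up to 1000. It was 504 against 374 bp in ranks past 1000 up to 2000, 359 against 286 bp in ranks past 2000 up to 3000, and 326 against 219 bp beyond rank 3000. Medians were not tested. The share of peaks of 800 bp or more was compared within the classes, a test chosen after the widths had been seen. It was 17.2% on X against 3.72% on the autosomes in ranks past 1000 up to 2000, and 4.89% against 0.392% beyond rank 3000 (Fisher's exact test, adjusted p = 1.31e-05 for each over 5 classes). The remaining classes did not pass at 800 bp, with 43.9% on X against 32.1% in ranks 1 to 500 (Fisher's exact test, adjusted p = 0.125), 25.8% against 11.5% in ranks past 500 up to 1000 (0.0695) and 4.21% against 1.88% in ranks past 2000 up to 3000 (0.13). Each of these passed at either 600 or 1000 bp, but not at both. At 600 bp the share was 71.9% against 55.1% in ranks 1 to 500 (Fisher's exact test, adjusted p = 0.0199) and 13.7% against 6.08% in ranks past 2000 up to 3000 (0.0156). In ranks past 500 up to 1000 it was 38.7% against 26.4% at 600 bp, which did not pass (Fisher's exact test, adjusted p = 0.147). At 1000 bp it was 22.6% against 4.69% in ranks past 500 up to 1000 (Fisher's exact test, adjusted p = 0.00262). The others did not pass at 1000 bp, with 26.3% against 21.4% in ranks 1 to 500 and 1.05% against 0.331% in ranks past 2000 up to 3000 (Fisher's exact test, adjusted p = 0.399 for each).

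**Figure D4:**
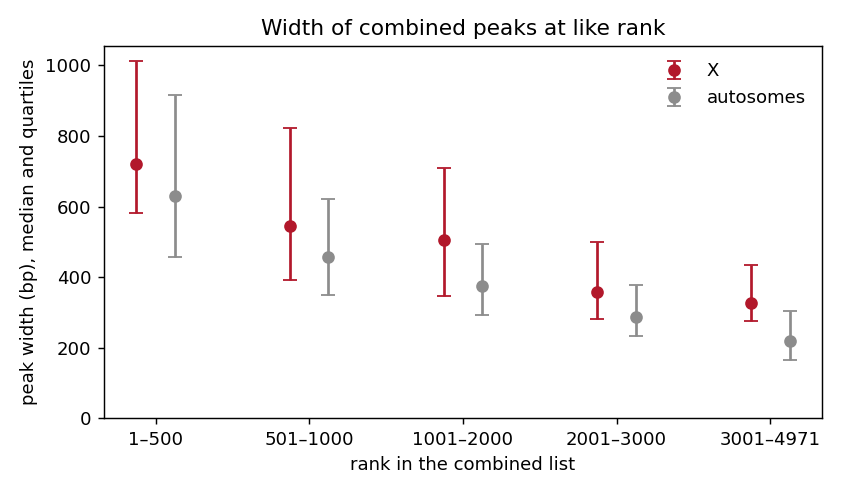
Width of combined peaks in bp (vertical axis) on X (red) and on the autosomes (grey) in 5 classes of rank in the combined list (horizontal axis); points are medians and bars run between the quartiles. The X median lies above the autosomal one in each class, from 722 against 631 bp in the best class to 326 against 219 bp in the last.

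Single peaks far from their neighbours were the usual arrangement on X. X as a whole held 25.6 combined peaks per Mb, against 54.7 on the autosomes. The median distance between neighbouring peaks was 22.8 kb, against 9.25 kb on the autosomes, without adjustment for this lower density. It was 21.8 kb within the left domain, 30.6 kb in the centre and 20.3 kb on the right. Of the 454 peaks, 306 had no other within 5000 bp, and the other 148 formed 63 runs, of which 47 were pairs. Distances between neighbours were within 5000 bp in 18.8% of 453 cases on X and 36.6% of 4512 on the autosomes. Most neighbours were thus further apart than this on the autosomes too, and these shares were not adjusted for density either. The run with the most peaks had 6, at X 1443233–1457567, and included peaks at ranks 155 and 498 that both replicates listed. The next had 5 peaks at X 5475014–5485532, the best at rank 1480, and none was found in both replicates.

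The dense windows differed in how well the replicates supported them. On a fixed grid of 100 kb, the fullest windows were X 13500001–13600000 and X 13700001–13800000, with 9 combined peaks each. In the first of these, none of the 9 was found in both replicates, the best ranked 2005, and 1 peak of replicate 2 and none of replicate 1 lay there. The second held the site at rank 34, 1 peak of replicate 1 and 4 of replicate 2. X 1400001–1500000 had 8 combined peaks with 3 of replicate 1 and 4 of replicate 2, and 3 of the 8 were found in both. Next to it, X 1300001–1400000 had 7, with 2 and 3 replicate peaks. X 4200001–4300000 also had 7 peaks, led by the site at rank 43, and its other 6 ranked between 1661 and 4736. Another 5 windows tied at 7.

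The longest empty stretches lay mostly on the left. The left tip of X carried no peak in any list before position 353180, a stretch of 353.2 kb from the end. On the autosomes the first combined peak lay at most 51.2 kb from the left end. Of the 5 longest stretches between combined peaks, 4 lay on the left and 1 in the centre, although of the 20 longest 6 lay on the left, 8 in the centre and 6 on the right. They were X 3371627–3605709 (234.1 kb), X 9743826–9958376 (214.6 kb), X 1627391–1837762 (210.4 kb), X 1093534–1302221 (208.7 kb) and X 5485533–5685973 (200.4 kb). The left ones held no replicate peak, whereas the one in the centre held a peak of replicate 2 at X 9932286–9932850, ranked 1705. Some of these stretches bordered dense ground directly: that of 208.7 kb ended where the windows with 7 and 8 peaks began, and that of 200.4 kb began at the end of the run of 5.

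On the grid of 100 kb, 20 of 178 windows on X had no combined peak, or 11.2%, against 27 of 827 on the autosomes, or 3.26%. The empty windows numbered 11 of 61 on the left, 5 of 64 in the centre and 4 of 53 on the right, and all 20 were empty in both replicate lists. At the other end, 10 of the 178 windows on X held 7 peaks or more, against 282 of the 827 on the autosomes. The mean was 2.55 peaks per window on X and 5.46 on the autosomes, and the shares of empty and full windows were not adjusted for this. These counts are descriptions of the grid and were not tested.

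The next comparison asked how often X peaks recurred in the replicates. An overlap of at least 1 bp with a peak of each replicate was found for 90 of 454 X peaks, or 19.8% (95% interval 16.3 to 23.8), against 1171 of 4517 autosomal peaks, or 25.9% (24.7 to 27.2). The background over all combined peaks was 25.4%. X and the autosomes differed by a 2-sided Fisher's exact test (p = 0.0039). It did not pass with a 50% reciprocal overlap, at 18.1% on X against 22.0% on the autosomes (Fisher's exact test, p = 0.0556). Found in neither replicate were 264 X peaks, or 58.1% (53.5 to 62.7), against 50.8% of autosomal peaks and a background of 51.5% (Fisher's exact test, p = 0.00309). This call was lost in the better-ranked 50% of the list, at 22.7% on X against 17.7% (Fisher's exact test, p = 0.0692). X was not alone at this level, since chromosome I had 20.6% of its peaks in both replicates and 58.9% in neither.

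The lower recurrence of X peaks was found with replicate 1. Replicate 1 listed 24.2% of the combined X peaks, against 33.8% of the autosomal ones (Fisher's exact test, p = 2.67e-05). Replicate 2 listed 37.4% of the X peaks, against 41.4% of the autosomal ones, which did not pass (Fisher's exact test, p = 0.109). Found in replicate 2 only were 80 X peaks (17.6%), against 697 autosomal peaks (15.4%), and in replicate 1 only 20 X peaks (4.41%), against 355 autosomal peaks (7.86%). Replicate 2 alone thus added more peaks than replicate 1 alone on X and on the autosomes. The best X peak in replicate 2 only was X 11030856–11031705 (rank 408, 850 bp), in the centre. The best in replicate 1 only was the neighbour of the block. A difference between the replicates in this respect was not tested, and the read depth of neither is known.

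Recurrence depended on rank, and X and the autosomes parted in the middle ranks. In ranks 1 to 500, 55 of 57 X peaks (96.5%) and 431 of 443 autosomal peaks (97.3%) were in both replicates (Fisher's exact test, adjusted p = 0.834 over 5 classes). In ranks past 500 up to 1000 the share was 58.1% of 31 X peaks against 81.9% of autosomal peaks (Fisher's exact test, adjusted p = 0.0176). In ranks past 1000 up to 2000 it was 19.5% of 87 against 32.6% (Fisher's exact test, adjusted p = 0.0186). In ranks past 2000 up to 3000 none of 95 X peaks was in both replicates, which allows a share of up to 3.16% by 3 counts of the total and 3.81% by the upper Clopper-Pearson limit, against 5.75% of autosomal peaks (Fisher's exact test, adjusted p = 0.0176). Beyond rank 3000 the counts were 0 of 184 X peaks and 6 of 1787 autosomal peaks (Fisher's exact test, adjusted p = 1).

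In these middle classes the difference passed the test with replicate 1 and missed it with replicate 2; a difference between the replicates was not tested. In ranks past 500 up to 1000, replicate 1 held 64.5% of X peaks against 85.1% of autosomal peaks (Fisher's exact test, adjusted p = 0.0122), and replicate 2 held 93.5% against 95.7% (adjusted p = 0.639). In ranks past 1000 up to 2000, replicate 1 held 29.9% against 46.8% (Fisher's exact test, adjusted p = 0.00797), whereas replicate 2 held the larger share of X peaks, 73.6% against 67.4% (adjusted p = 0.349). In ranks past 2000 up to 3000 replicate 1 held 6.32% against 19.6% (Fisher's exact test, adjusted p = 0.00361) and replicate 2 held 17.9% against 27.1% (adjusted p = 0.163). With a 50% reciprocal overlap in both replicates, none of the 3 classes passed (Fisher's exact test, adjusted p of 0.177, 0.177 and 0.0897, in order of rank).

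**Figure D5:**
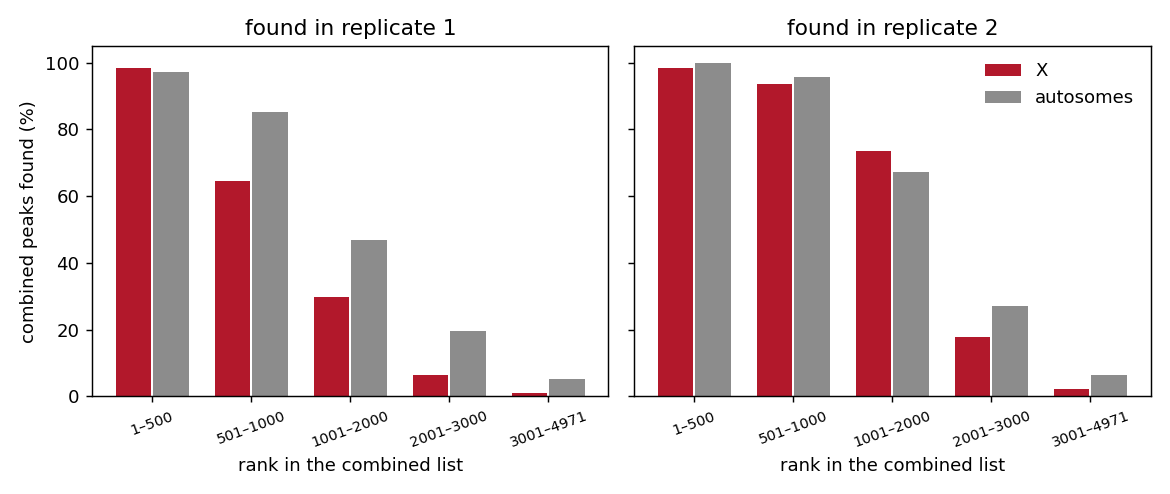
Share of combined peaks on X (red) and on the autosomes (grey) that overlap a peak of replicate 1 (left panel) or replicate 2 (right panel), in percent, by class of rank in the combined list. In ranks past 500 up to 1000 replicate 1 holds 64.5% of X peaks against 85.1% of autosomal peaks, and replicate 2 holds 93.5% against 95.7%.

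Among the domains of X, no difference in recurrence passed the test. Found in both replicates were 31 of 153 left peaks (20.3%), 24 of 148 centre peaks (16.2%) and 35 of 153 right peaks (22.9%). Set against the rest of X, the adjusted p was 0.901 for the left domain, 0.395 for the centre and 0.395 for the right (Fisher's exact test, adjusted over 3 domains). The centre peaks in both replicates had a median rank of 240 and a median width of 724.5 bp, against 493 and 530 bp on the left and 414 and 602 bp on the right. The best X peak in neither replicate was X 6743446–6744860, a centre peak of 1415 bp at rank 1062.

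Seen from the replicates, nearly all X peaks were retained in the combined list. Every one of the 112 X peaks of replicate 1 overlapped a combined peak, and so did 172 of the 174 of replicate 2. The 2 exceptions lay in the centre, at X 9932286–9932850 (565 bp) and X 8944140–8944351 (212 bp), at ranks 1705 and 1975. Of the replicate 1 peaks on X, 92 overlapped a peak of replicate 2. This is 82.1% of the X peaks of replicate 1 (95% interval 73.8 to 88.7) and 52.9% of those of replicate 2 (45.2 to 60.5). The corresponding shares were not computed for the autosomes, so whether X differs from them in this is not known.

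The shared X peaks lay close together in both lists. In 92 one-to-one pairs the midpoints lay a median of 27.5 bp apart, with an upper quartile of 62.5 bp and a maximum of 427 bp. The peak was wider in replicate 2 in 61 of the 92 pairs, with medians of 477.5 bp in replicate 1 and 535.5 bp in replicate 2. Its q-value was smaller in replicate 2 in 77 pairs. Combined peaks were mostly, but not always, wider than their matches. The matching peak of replicate 1 was narrower in 91 of 108 single matches on X, with a median of 84.9% of the combined width. That of replicate 2 was narrower in 136 of 168, with a median of 90.5%. This was not particular to X. On the autosomes the match was narrower in 1308 of 1493 for replicate 1 (median 79.6%) and 1417 of 1823 for replicate 2 (median 89.6%).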

How the data were processed

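ChIP-seq peak lists were analysed for 2 ChIP samples of late embryos and for the series as a whole; both input samples were used only as labels. Per the file headers, coordinates are on WormBase build WS180. The authors' files give 1 q-value per peak beside its coordinates, and the deposited lists name PeakSeq as their source. The sources used here do not say how reads were aligned, which threshold was set, how the input was used or how the combined list was made. Depth is unknown, as the lists hold no counts. Peaks were ranked by q-value within each list. Peaks on X were assigned to a domain by midpoint. Overlaps of at least 1 bp were checked against bedtools 2.31.1. Intervals of shares are 95% Clopper-Pearson intervals and concern counting error alone. Exact binomial and Fisher's exact tests were 2-sided, with Benjamini-Hochberg adjustment within each family. The binomial test of the domains and the overlap rule were tried on simulated data, and Fisher's exact test was not. Named regions are the 20 best X peaks, the 5 best of each domain, the 5 widest, the 5 longest stretches between peaks, the 5 fullest windows of 100 kb (ties in order of position), the best X peak in neither replicate and replicate peaks missing from the combined list; regions named beyond these were chosen after their values were seen. The X peaks, the domain limits and the tests were chosen with earlier results of these data known. Replicates are not stated to come from separate cultures, so their spread may be technical. Python 3.11.15, numpy 2.4.6, scipy 1.17.1 and matplotlib 3.10.9 were used.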

Additional observations from a re-analysis of the deposited data

How the results depend on the processing

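"Without replicate 1", replicate 2 stood alone, as the peak list for domains and widths and as the sole support for recurrence; "without replicate 2" is the converse. The settings that leave out peaks under 50 bp, the rank classes with 1 replicate and the widths by rank class were chosen after the data were seen. Of 100 values under alternative settings, 84 kept their direction and their side of the threshold. No domain share passed its test under any setting run, and the share of broad peaks on X passed under each, with limits of 600 and 1000 bp included. Support in both replicates was 18.1% with a 50% reciprocal overlap, 37.4% without replicate 1 and 24.2% without replicate 2, against 19.8%. Support in neither was 62.6% without replicate 1, 75.8% without replicate 2 and 22.7% among the better-ranked 50% of peaks, against 58.1%. By rank class, a 50% reciprocal overlap gave 84.2% on X in ranks 1 to 500, now above the 79.9% of the autosomes, and 54.8%, 19.5% and 0% in the next 3 classes, which no longer passed. Without replicate 2 and without replicate 1, the X shares from the best rank class to the last were 98.2% and 98.2%, 64.5% and 93.5%, 29.9% and 73.6%, 6.32% and 17.9%, and 1.09% and 2.17%. The direction turned without replicate 2 in ranks 1 to 500 and without replicate 1 in ranks past 1000 up to 2000, and beyond rank 3000 the test was passed without replicate 2 (Fisher's exact test, adjusted p = 0.0122). By construction a reciprocal overlap finds no more matches than 1 bp does, and in ranks past 1000 up to 2000 it found as many on X, at 19.5% under both, and fewer on the autosomes, at 28.4% against 32.6%; otherwise the cause was not tested. No paired analysis was possible because the replicate numbers are shared only with the input samples, whose values were not analysed here, and samples of different groups are nowhere compared. Because read depth is unknown, what it limits cannot be stated.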
